A study of Homo sapiens with 16 samples.

Results

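Interferon-stimulated genes are genes whose transcripts are known to accumulate when a cell receives interferon. The 45 described here were taken by symbol, and all 45 were found among the 61906 genes measured in 2 human cell lines. The samples were cultures of HEK-293T, a line of embryonic kidney origin made with the SV40 large T antigen, and of the fibrosarcoma line HT-1080. In each line, one group received siHNRNPH1, an siRNA against the RNA-binding protein HNRNPH1, and the other the control siRNA siNegative. Every culture was transfected with 20 nM siRNA and its RNA was taken after 48 h, so a short double-stranded RNA and the transfection reagent were common to all 4 groups, and an untransfected group was not analysed here. Each group had 3 biological replicates by short-read RNA-seq (12 libraries), and 1 pool per group was read as full-length cDNA (IsoSeq). Each line stands for itself only, and cultures of a line share their cells' origin.

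Interferon secreted by a cell binds receptors that activate the kinases JAK1 and TYK2, and these phosphorylate STAT2 among others. STAT2 and IRF9 act in the complex ISGF3, which binds the interferon-stimulated response element, a short GAAA-rich sequence in the promoters of its targets. The products sense foreign RNA, degrade it or stop its translation, block viral entry, tag proteins with the ubiquitin-like ISG15, or load peptides onto MHC class I. Cultured cells of many lines keep a low level of these transcripts without added interferon, and IRF1 is known to contribute to it.

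The response element is shown first, since it is the sequence that the group is known for. The letters GAAA, 2 bases of any kind and GAAA again were searched on both strands of the RefSeq promoters of build GRCh38.p14, from 250 bases before to 50 bases after the gene's start. Of 39 members with a promoter in that table, 26 (66.7%) held at least 1 match, against 996 of all 27305 promoters (3.65%). The windows below are 30 bases long and are written 5′ to 3′ on the strand that reads GAAA. Capitals mark the match. They belong to 5 members that were lower in HT-1080 cells with siHNRNPH1 (OAS3, IFIH1, DDX60, IFI44, TLR3), to 2 that were higher there (IFITM3, IFI6), and to IFIT1 and ISG20, called in HEK-293T.
OAS3, chr12:112938452-112938481, gene strand: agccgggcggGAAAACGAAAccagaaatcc
IFIH1, chr2:162318686-162318715, gene strand: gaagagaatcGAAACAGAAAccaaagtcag
DDX60, chr4:168318821-168318850, gene strand: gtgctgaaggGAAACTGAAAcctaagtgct
IFI44, chr1:78649761-78649790, opposite strand: tcagagaaagGAAACTGAAActcagtgtgc
TLR3, chr4:186069142-186069171, opposite strand: cggcactctcGAAAGTGAAAgtaaagcttg
IFITM3, chr11:320876-320905, gene strand: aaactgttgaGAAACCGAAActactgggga
IFI6, chr1:27672329-27672358, gene strand: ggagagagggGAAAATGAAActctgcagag
IFIT1, chr10:89392497-89392526, opposite strand: accgaaagggGAAAGTGAAActaaagctag
ISG20, chr15:88638937-88638966, gene strand: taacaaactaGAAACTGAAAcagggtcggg
A match describes these letters and does not show that a protein binds there.

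Depth and identity of the libraries bear on what follows, and levels are given as CPM, the counts of a gene per mega counts of its library. The total of expected counts per library was 107.7 to 121.0 M (mega) in HEK-293T and 27.3 to 32.7 M in HT-1080. The list of 12 mesenchymal genes fixed for HT-1080 summed to 11100 to 14800 CPM in its libraries and to 436 to 590 CPM in HEK-293T, while the 6 genes fixed for HEK-293T summed to 496 to 789 CPM there and to 98.9 to 138 CPM in HT-1080. Of 8 immune-cell markers, PTPRC, CD3E, MS4A1 and NKG7 were at 0 counts in every HT-1080 library, and in HEK-293T none of these 4 passed 2 counts in a library. The target itself, HNRNPH1, was lower with siHNRNPH1, with log2 fold changes of -1.76 in HEK-293T (SE 0.20) and of -1.49 in HT-1080 (SE 0.04). Without HEK-293T siHNRNPH1 replicate 1, described next, the HEK-293T value was -1.59 (SE 0.03). Replicate 1 of HEK-293T siHNRNPH1 stood apart: chi-square divided by its degrees of freedom was 811 and 848 for its counts against those of replicates 2 and 3, and 9.11 between the latter, so HEK-293T log2 fold changes and counts of calls are given with and without it. In HT-1080, siNegative replicate 2 differed from replicates 1 and 3 by 17.8 and 17.4 on that measure, against 1.78 between those.

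Baseline levels were compared in the siNegative libraries, to show how much of this programme each line carries with the control siRNA. These cells were transfected too, so baseline here does not mean untransfected cells. HT-1080 cells held more of it. Of 42 members tested, 33 were higher in HT-1080 and 8 were higher in HEK-293T (edgeR BH-adjusted p under 0.05), or 97.6% called in either direction, while 86.6% of all 19776 tested genes were called. The direction differed from the background: 78.6% of the tested members were higher in HT-1080 against 40.8% of all genes, 19.0% were lower against 45.8%, and their median log2 difference was 2.31 against -0.10. Each gene is compared only with itself here, since gene lengths were not used. The line cannot be told apart from the table and depth it came with.

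**Figure D1:**
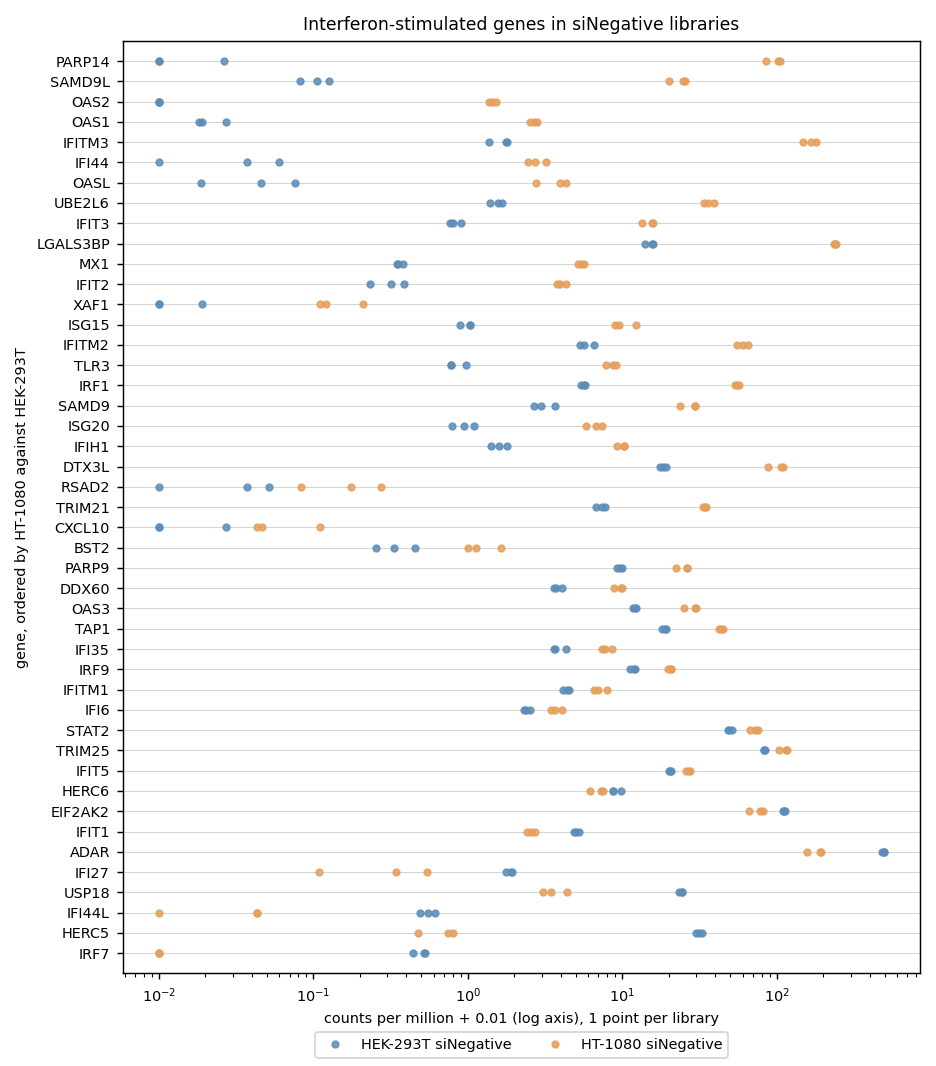
CPM of the 45 interferon-stimulated genes in the 3 siNegative libraries of each line, on a log axis with 0.01 added, ordered from the genes with the largest HT-1080 excess at the top to those with the largest HEK-293T excess at the bottom. For most genes the 3 points of a line lie close together and the lines are apart, with PARP14 at the upper end and IRF7 at the lower end.

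IFITM3, SAMD9L and MX1 were each higher in HT-1080 by more than the median of the members. IFITM3, a membrane protein that blocks fusion of viruses with endosomes, stood at 147, 179 and 166 CPM in HT-1080 and at 1.78, 1.37 and 1.75 CPM in HEK-293T, a log2 difference of 6.90 (SE 0.11; edgeR BH-adjusted p = 1.05e-11). SAMD9L, a factor that restricts poxviruses, differed by 8.17 (SE 0.16), with 23.3 CPM ± 2.88 in HT-1080 and 0.0941 CPM ± 0.0218 in HEK-293T (SD, n = 3 each). MX1, a GTPase that traps viral nucleocapsids, stood at 5.38 CPM ± 0.253 against 0.351 CPM ± 0.0162. BST2 and IFITM1 differed by less than that median, 2.14 (SE 0.29) and 0.98 (SE 0.09). In none of IFITM3, SAMD9L and MX1 did a library of one line reach the range of the other.

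Among enzymes of the 2-5A pathway, which make the activator of RNase L, OAS1 had 73, 76 and 84 counts in the HT-1080 siNegative libraries and 1, 2 and 1 in the deeper HEK-293T libraries. OAS2 had 41, 41 and 43 counts in HT-1080 and 0 in all 3 HEK-293T libraries. Taking 3 counts over the group as the limit for a count of 0, OAS2 was at least 165-fold higher in HT-1080 on the CPM scale. OAS3 was at a measurable level in both lines, 28.2 CPM ± 2.71 in HT-1080 and 11.97 CPM ± 0.237 in HEK-293T. All members of the family had reads in HT-1080, whereas OAS3 alone passed the filter in HEK-293T, with OASL at 4, 1 and 8 counts there.

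PARP14, a mono-ADP-ribosyltransferase, gave the widest contrast, with 8450 counts over the HT-1080 siNegative libraries and 2 over those of HEK-293T. The ratio of CPM was 16800, with an exact 95% interval of 4640 to 139000 that covers counting error only. Its neighbours on chromosome 3, PARP9 and DTX3L, were also higher in HT-1080, by 1.62 (SE 0.07) and 2.73 (SE 0.08) on the log2 scale, but had 9.63 and 18.2 CPM in HEK-293T. The near absence in HEK-293T was therefore found in PARP14 and not in the adjacent pair.

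The genes that went the other way were more abundant in HEK-293T. HERC5, the ligase that attaches ISG15 to proteins, stood at 31.2, 32.7 and 29.8 CPM in HEK-293T and at 0.733, 0.465 and 0.793 CPM in HT-1080, a log2 difference of -5.30 (SE 0.12; edgeR BH-adjusted p = 7.17e-11). USP18, the protease that removes ISG15, differed by -2.48 (SE 0.10), and its mean was 23.9 CPM ± 0.614 in HEK-293T and 3.62 CPM ± 0.675 in HT-1080 (SD, n = 3 each). Close copies of USP18 exist in the genome, so its values are uncertain. ISG15 itself was higher in HT-1080, at 10.2 CPM ± 1.77 against 0.974 CPM ± 0.0829. UBE2L6, which charges ISG15 for transfer, was also higher in HT-1080, by 4.82 (SE 0.09) on the log2 scale. ISG15 and UBE2L6 were thus higher in one line and HERC5 and USP18 in the other. IRF7, a transcription factor for interferon genes, had 57, 60 and 52 counts in HEK-293T and 0 in all 6 HT-1080 libraries, which makes it at least 14.2-fold higher in HEK-293T siNegative. IFI27, IFI44L, ADAR, IFIT1 and EIF2AK2 completed the 8, with ADAR, the enzyme that edits adenosine in double-stranded RNA, at 490 CPM ± 6.28 in HEK-293T and 181 CPM ± 19.9 in HT-1080. The EIF2AK2 difference of -0.32 was no longer called when all 12 libraries were fitted together. HERC6, the neighbour of HERC5, did not pass in either direction, with a log2 difference of -0.13 (SE 0.09; edgeR BH-adjusted p = 0.208). Its CPM groups did not overlap, at 9.06 CPM ± 0.627 in HEK-293T and 6.96 CPM ± 0.697 in HT-1080. Scaling by library size alone called all 42 members (87.4% of all genes), 9 of them lower in HT-1080, so the result for HERC6 turned with the scaling.

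Interferon genes themselves were almost unread. Of 21 ligand genes, 16 had 0 counts in all 12 libraries, and apart from IFNE none passed 2 counts in a library. IFNB1, the interferon that most cell types make first, had 1 count over the 12 libraries. IFNE, an epithelial type I interferon, was the only ligand tested. Its HT-1080 counts were 58, 97 and 65 with siNegative and 127, 146 and 119 with siHNRNPH1, and it rose there by 0.72 (SE 0.17) on the log2 scale (edgeR BH-adjusted p = 0.00369). Its HEK-293T counts were 20, 15 and 10 against 19, 42 and 28, a log2 change of 0.97 that was not called, and without replicate 1 of siHNRNPH1 it rose by 1.17 (edgeR BH-adjusted p = 0.011).

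The comparison of siHNRNPH1 with siNegative in HT-1080 asked how the programme moves when HNRNPH1 is lowered. Most members that changed fell. Of 39 members tested, 19 were lower and 7 were higher (edgeR BH-adjusted p under 0.05), and 13 were not called. The share called, 66.7%, was close to the 65.3% of all 16145 genes tested, so the number of changed members does not set the group apart. The split differed from the background: 48.7% of the members fell against 32.6% of all genes, and 17.9% rose against 32.7%. Scaling by library size alone gave 11 higher and 19 lower (65.2% of all genes called), and leaving out siNegative replicate 2 gave 9 higher and 20 lower (70.2%). Their median log2 fold change was -0.38, where that of all tested genes was 0.01. In bulk RNA, fewer cells with a transcript and less transcript per cell cannot be told apart.

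**Figure D2:**
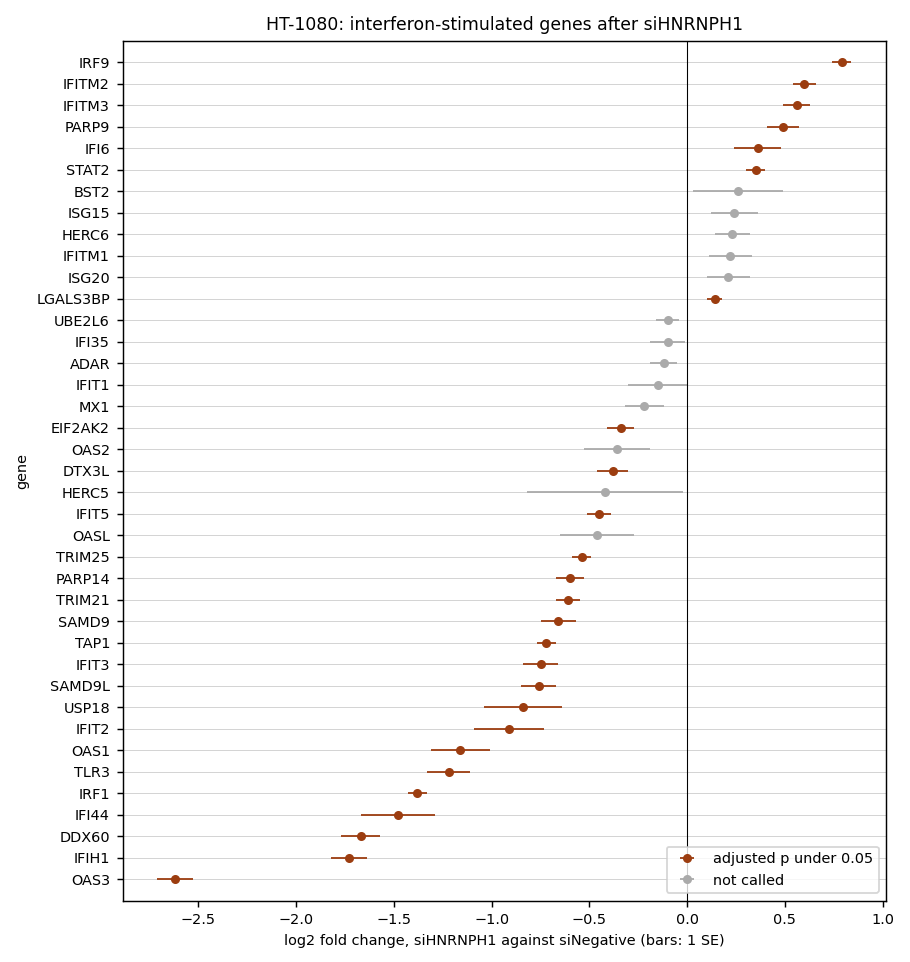
Log2 fold change of the 39 tested interferon-stimulated genes in HT-1080 with siHNRNPH1 against siNegative, 3 libraries each, with bars of 1 SE and called genes in colour. Values run from -2.62 for OAS3 to 0.79 for IRF9, with 19 called genes left of 0 and 7 right of it.

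OAS3, IFIH1 and DDX60 had the lowest log2 fold changes of the 39 members in HT-1080. OAS3 stood at 30.1, 25.1 and 29.5 CPM with siNegative and at 4.59, 4.78 and 5.02 CPM with siHNRNPH1, a log2 fold change of -2.62 (SE 0.09; edgeR BH-adjusted p = 1.50e-08). The lowest control library was far above the highest depleted one. OAS1, on the same gene cluster of chromosome 12, went from 2.67, 2.52 and 2.78 CPM to 1.13, 1.26 and 1.33 CPM (log2 fold change -1.16, SE 0.15; edgeR BH-adjusted p = 7.88e-05). OAS2, which lies beside them, had 1.502, 1.361 and 1.421 CPM against 1.13, 1.26 and 1.09 CPM; its value of -0.36 (SE 0.17) did not pass (edgeR BH-adjusted p = 0.0872), although the groups did not overlap. Neighbours within the cluster therefore had values from -2.62 to -0.36.

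IFIH1 encodes MDA5, a cytoplasmic sensor of long double-stranded RNA. Its level was 9.27, 10.2 and 10.2 CPM with siNegative and 3.12, 3.06 and 3.16 CPM with siHNRNPH1 (log2 fold change -1.73, SE 0.09; edgeR BH-adjusted p = 2.24e-07). DDX60, a helicase linked to RNA sensing, went from 9.89, 8.77 and 9.81 CPM to 3.39, 3.03 and 2.95 CPM (-1.67, SE 0.10; edgeR BH-adjusted p = 4.57e-07). TLR3, the endosomal receptor for double-stranded RNA, fell from 8.52 CPM ± 0.665 to 3.83 CPM ± 0.371 (SD, n = 3 each; log2 fold change -1.22, SE 0.11). These 3 sensing genes lie at separate loci, and for each the depleted libraries were all below the control libraries. EIF2AK2, the kinase PKR that stops translation on double-stranded RNA, fell by a smaller 0.34 (SE 0.07).

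The transcription factors split. IRF1, known to contribute to basal levels of such genes, went from 53.8, 55.1 and 56.5 CPM to 21.5, 23.1 and 21.8 CPM. Its log2 fold change was -1.38 (SE 0.05, edgeR BH-adjusted p = 3.01e-08). The part of IRF1 in the changes of other members was not tested. IRF9, the DNA-binding subunit of ISGF3, moved against the group, from 19.9, 20.6 and 20.5 CPM to 37.4, 36.6 and 36.6 CPM (0.79, SE 0.05; edgeR BH-adjusted p = 7.31e-07). STAT2, its partner, rose from 71.6, 66.6 and 75.1 CPM to 97.3, 94.6 and 92.6 CPM (0.35, SE 0.05; edgeR BH-adjusted p = 2.15e-04). IRF9 and STAT2 thus rose while IRF1 and most of the other members called were lower.

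**Figure D3:**
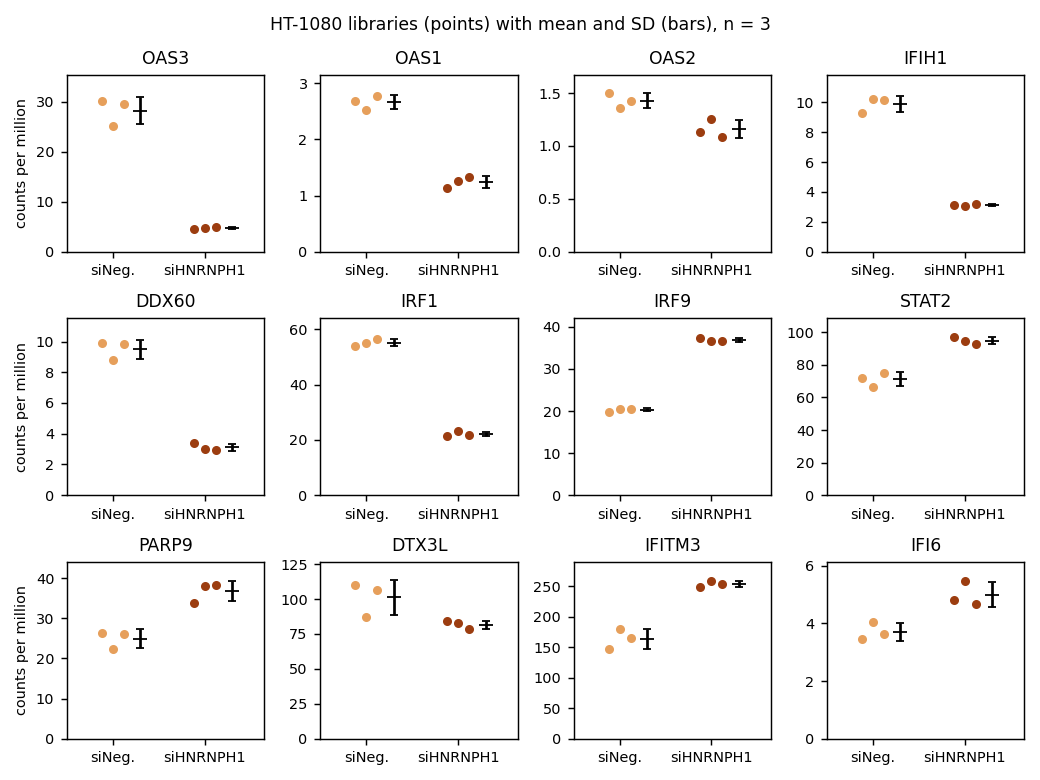
CPM of 12 interferon-stimulated genes in each HT-1080 library (points), with the mean and SD of the 3 libraries of each group (bars) and axes that start at 0. The siHNRNPH1 points lie below all siNegative points for OAS3, OAS1, OAS2, IFIH1, DDX60, IRF1 and DTX3L and above them for IRF9, STAT2, PARP9, IFITM3 and IFI6.

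IFIT proteins bind RNA with foreign 5′ ends. IFIT2 fell by 0.91 (SE 0.18), IFIT3 by 0.75 (SE 0.09) and IFIT5 by 0.45 (SE 0.06) on the log2 scale, each with an edgeR BH-adjusted p of at most 0.00131. IFIT1 had 2.42, 2.69 and 2.54 CPM against 2.23, 2.21 and 2.81 CPM, groups that overlapped (-0.15, SE 0.15; edgeR BH-adjusted p = 0.38). RefSeq places all 4 within the span of LIPA, and the strandedness of the counting is not stated, so reads from either strand could not be separated there.

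IFITM2 and IFITM3 went against the group. IFITM3 rose from 147, 179 and 166 CPM to 248, 258 and 254 CPM (log2 fold change 0.56, SE 0.07; edgeR BH-adjusted p = 6.32e-05), and IFITM2 from 60.3 CPM ± 4.85 to 96.2 CPM ± 3.87 (SD, n = 3 each; 0.60, SE 0.06). IFITM1, which acts at the cell surface, gave 0.22 (SE 0.11) with overlapping groups and was not called (edgeR BH-adjusted p = 0.0978). The 3 genes are close copies in one cluster on chromosome 11, so the division of reads among them is uncertain. The calls on IFITM2, IFITM3 and STAT2, and those on DTX3L, EIF2AK2 and SAMD9, were lost when all 12 libraries were fitted together.

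ADP-ribosylation gave members of opposite direction at one locus. PARP14 fell from 104, 84.4 and 101 CPM to 68.2, 65.6 and 66.6 CPM (log2 fold change -0.60, SE 0.07; edgeR BH-adjusted p = 5.28e-05). DTX3L, a ubiquitin ligase, fell by 0.38 (SE 0.08; edgeR BH-adjusted p = 0.00198). PARP9, its binding partner, rose from 26.3, 22.3 and 26.2 CPM to 33.8, 38.0 and 38.3 CPM (0.49, SE 0.08; edgeR BH-adjusted p = 3.24e-04). PARP9 and DTX3L overlap each other in RefSeq, and with strandedness not stated their reads cannot be told apart in the overlap.

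Of the remaining members, 7 fell, namely IFI44 by 1.48, USP18 by 0.84, SAMD9L by 0.76, TAP1 by 0.72, SAMD9 by 0.66, TRIM21 by 0.61 and TRIM25 by 0.54 on the log2 scale. TAP1 is a subunit of the peptide transporter of MHC class I, and TRIM25 the ligase that activates the sensor RIG-I. IFI6 rose by 0.36 (SE 0.12; edgeR BH-adjusted p = 0.021) and LGALS3BP by 0.14 (SE 0.04; edgeR BH-adjusted p = 0.0107). Those 2 calls were lost in more settings than the others: IFI6 lost its call under 5 of the other settings, among them DESeq2 and leaving out siNegative replicate 1 or 3 or siHNRNPH1 replicate 2, and LGALS3BP under 4, among them leaving out siNegative replicate 1 or siHNRNPH1 replicate 3. The 13 not called included ISG15 (0.24, SE 0.12), ISG20 (0.21, SE 0.11), BST2 (0.26, SE 0.23), HERC6 (0.23, SE 0.09), MX1 (-0.22, SE 0.10), OASL (-0.46, SE 0.19) and ADAR (-0.12, SE 0.07).

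The promoter letters shown above were set against these directions. A match was found in 13 of the 17 genes that fell and have a promoter in the table (76.5%), in 3 of 6 that rose and in 7 of 11 not called (63.6%). Genes of either direction thus held matches, and the small numbers allow no order among the shares.

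Summed marker levels of the HT-1080 libraries also moved. That of the 12 mesenchymal genes was 14700 to 14800 CPM with siNegative and 11100 CPM with siHNRNPH1. The summed level of the 8 immune markers was 36.3 to 39.8 CPM and 74.0 to 75.4 CPM, nearly all of it CD68, a lysosomal protein, at 37.9 and 74.3 CPM on average. The defining lymphoid markers were at 0 in all 6 libraries. The part of either value in the results above was not tested.

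Other genes of the pathway, in lists that hold none of the 45, were read in HT-1080 in the same fit. That fit called 32.6% of all genes lower and 32.7% higher. Antigen processing and MHC class I fell most uniformly: 15 of 16 genes were lower and none higher, with a median log2 fold change of -0.52. The immunoproteasome subunit PSMB10 went from 20.9, 26.0 and 20.7 CPM to 5.02, 4.81 and 5.02 CPM (-2.25, SE 0.11; edgeR BH-adjusted p = 1.39e-07), and TAP2, the partner of TAP1, fell by 0.82 (SE 0.05). The 16th gene, HLA-E, had 0.06 (SE 0.05; edgeR BH-adjusted p = 0.305). Among 38 further interferon-stimulated genes tested, 23 fell and 9 rose, with a median of -0.39. TRIM14 fell by 1.34, GBP3 by 1.31 and GBP1 by 1.25, while TRIM38 rose by 0.82.

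The upstream lists were mixed, in the same fit that called 32.7% of all genes higher and 32.6% lower. Receptors and JAK-STAT genes gave 4 higher and 3 lower of 10 tested, among them STAT3 (0.82, SE 0.05) and the kinase TYK2 (-0.48, SE 0.04). Sensors and adaptors gave 6 higher and 6 lower of 14, with IFI16, a DNA sensor, at 1.19 (SE 0.04) and STING1, the adaptor for cyclic dinucleotides, at -0.88 (SE 0.05). Negative regulators gave 2 higher and 4 lower of 9. SOCS1, an inhibitor of JAK kinases that interferon itself induces, went from 108, 128 and 101 counts to 29, 24 and 20 (-2.31, SE 0.18; edgeR BH-adjusted p = 3.01e-06). SOCS1 thus moved with most of the called targets, and the upstream lists took no common direction.

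In HEK-293T the same comparison called few members. Of 37 tested, ISG20 rose and DDX60 and IFIT1 fell (edgeR BH-adjusted p under 0.05), or 8.11%, where 10.0% of all 19966 genes were called (5.12% higher and 4.88% lower), and the median log2 fold change was -0.13 against 0.02. Without replicate 1 of siHNRNPH1, 21 of 37 were called, 9 higher and 12 lower, or 56.8% where 61.6% of all genes were called, with a median of -0.06 against -0.00. Neither share stood above the background. In the latter fit, 32.4% of the members fell against 31.2% of all genes and 24.3% rose against 30.4%. Scaling by library size alone gave 11 higher and 8 lower in that fit (61.6% of all genes called), so the balance of directions turned with the scaling.

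Summed marker levels moved in HEK-293T too. The 8 immune markers summed to 0.813 to 0.892 CPM with siNegative and to 1.46 to 2.87 CPM with siHNRNPH1, all 8 with means below 1 CPM, and the 6 genes fixed for HEK-293T to 496 to 523 CPM and to 580 to 789 CPM. Their part in the HEK-293T results was not tested.

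**Figure D4:**
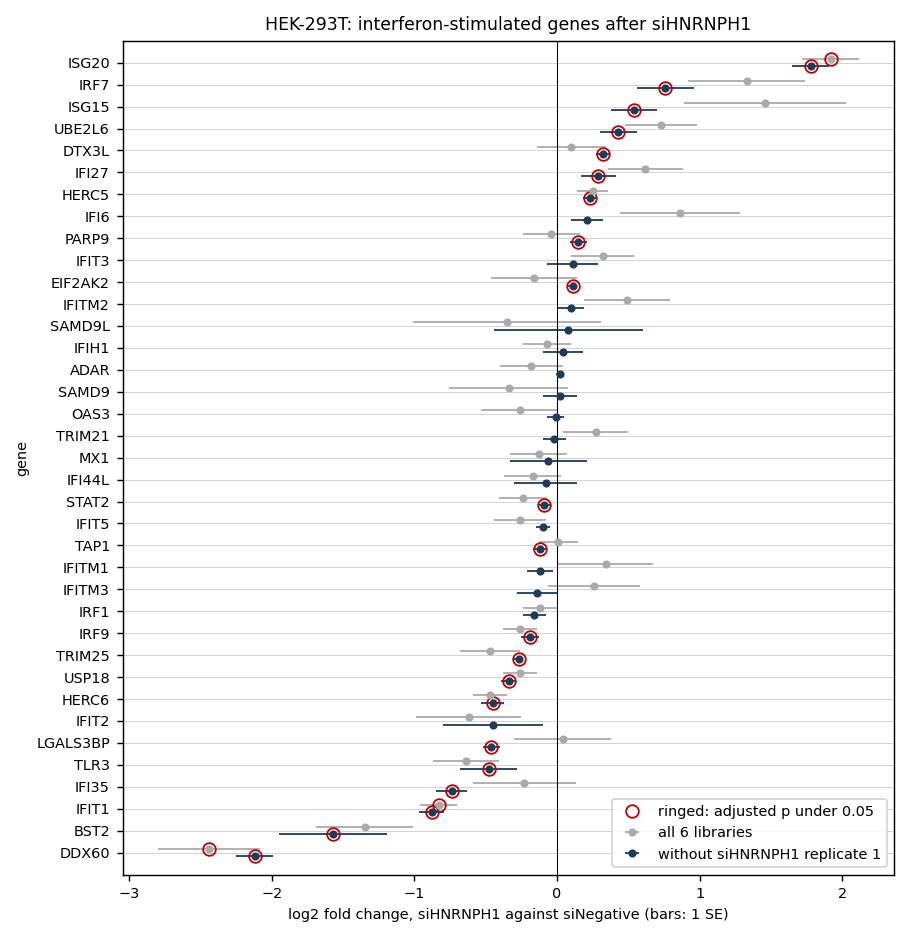
Log2 fold change of the 37 tested interferon-stimulated genes in HEK-293T with siHNRNPH1 against siNegative, from all 6 libraries (grey) and without siHNRNPH1 replicate 1 (dark), with bars of 1 SE and rings around called genes. With all libraries 3 genes are ringed; without the replicate 21 are, and DDX60 and ISG20 sit at the ends in both.

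ISG20, an exonuclease that degrades viral RNA, stood at 1.08, 0.930 and 0.777 CPM with siNegative and at 4.09, 3.41 and 3.22 CPM with siHNRNPH1. Its log2 fold change was 1.92 (SE 0.20; edgeR BH-adjusted p = 0.0081) and 1.78 (SE 0.13; edgeR BH-adjusted p = 1.12e-10) without replicate 1. All 3 depleted libraries were high, and, of the settings run, the call was lost in the replicate block and when any 1 of the siNegative libraries was left out. DDX60 went from 3.61, 3.73 and 4.05 CPM to 0.343, 1.00 and 0.807 CPM (-2.44, SE 0.36; edgeR BH-adjusted p = 0.0176; without replicate 1 -2.12, SE 0.13). IFIT1 went from 4.84, 5.23 and 5.02 CPM to 2.94, 2.69 and 3.02 CPM (-0.83, SE 0.13; edgeR BH-adjusted p = 0.0177; without replicate 1 -0.88, SE 0.09). For both, each of the fits that left out 1 of the other 5 libraries lost the call.

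Values of several members rested on replicate 1. ISG15 had 1.03, 0.878 and 1.02 CPM with siNegative and 5.10, 1.60 and 1.34 CPM with siHNRNPH1; the log2 fold change of 1.46 (SE 0.57) was not called (edgeR BH-adjusted p = 0.174), and without replicate 1 it was 0.54 (SE 0.16; edgeR BH-adjusted p = 0.00499). IRF7, absent from HT-1080, went from 57, 60 and 52 counts to 214, 109 and 87, not called with all libraries (1.33, SE 0.41; edgeR BH-adjusted p = 0.106) and 0.76 (SE 0.20) without replicate 1. LGALS3BP, a secreted glycoprotein, stood at 15.8, 15.5 and 14.0 CPM against 23.9, 11.4 and 11.4 CPM, so its value turned from 0.04 to -0.46 without that library. The sign differed between the fits for 11 of the 37 members. In BST2, tetherin, which holds budding virions at the surface, the value was close in both fits: it had 0.243, 0.448 and 0.322 CPM against 0.167, 0.124 and 0.111 CPM, groups that did not overlap. Its log2 fold change was -1.35 (SE 0.34; edgeR BH-adjusted p = 0.0612), not called, and -1.57 (SE 0.38; edgeR BH-adjusted p = 0.00121) without replicate 1.

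Among the 37, replicate 1 was above both other siHNRNPH1 libraries for 16 members, below both for 18 and between them for 3. Its deviation on the scale log2 (CPM + 0.1) ran from -1.57 to 1.74, where that of siNegative replicate 1 ran from -0.49 to 0.40. The deviation went with transcript length: over 22 members with an IsoSeq model in HEK-293T, Spearman's rho with the median spliced length was -0.732 for siHNRNPH1 replicate 1 and -0.0578 for siNegative replicate 1. Only 4 of the 16 members above had a model, against 15 of the 18 below, so most members above are not in this value. Several lengths, such as those of OAS3 and SAMD9, rest on 1 model. The share of all genes above or below was not computed. These points are genes of 1 library and not independent replicates. The part of length in the HEK-293T results was not tested.

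**Figure D5:**
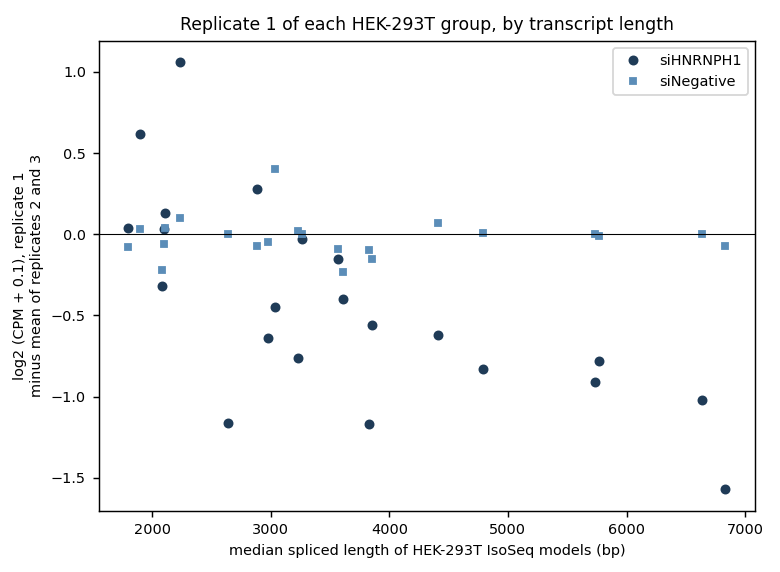
Deviation of replicate 1 from the mean of replicates 2 and 3, on the scale log2 (CPM + 0.1), against the median spliced length in base pairs of the HEK-293T IsoSeq models of 22 interferon-stimulated genes. Circles for siHNRNPH1 run downward with length (rho -0.732) and squares for siNegative stay near 0 (rho -0.0578).

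Antigen processing genes gave 1 lower call in HEK-293T, ERAP2, a peptidase of the endoplasmic reticulum, at -1.76 (SE 0.15; edgeR BH-adjusted p = 0.00586), and 2 higher and 11 lower of 16 without replicate 1, in a fit that called 30.4% of all genes higher and 31.2% lower. In that fit ERAP2 was at -1.65 (SE 0.08), PSMB10 fell by 1.92 (SE 0.11) and TAP2 by 0.60 (SE 0.03). With all libraries PSMB10 was at -1.30 (SE 0.42) and TAP2 at -0.81 (SE 0.22), neither of them called. Further interferon-stimulated genes gave 1 higher call of 32, TDRD7 at 0.74 (SE 0.13), which was 0.82 (SE 0.05) without replicate 1. Without that replicate 11 of this list were higher and 7 lower, against the same shares of all genes.

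Of the 3 members called in HEK-293T with all libraries, DDX60 was also called in HT-1080, lower in each line. Without replicate 1 of HEK-293T siHNRNPH1, 11 of the 34 members tested in both lines were called in both. DDX60, PARP9, TAP1, TLR3, TRIM25 and USP18 went in the same direction, and DTX3L, EIF2AK2, IRF9, LGALS3BP and STAT2 in opposite directions. The HEK-293T fit without that replicate called 61.6% of all genes, and the HT-1080 fit called 65.3%. How many of all genes both fits called was not computed, so no shared response is drawn from these 11. Tested as a line by siRNA interaction, the effects differed for 12 of 42 members (28.6%, where 19.0% of all genes were called). In HT-1080 the effect was more negative for 9 of them (21.4% against 10.8% of all genes) and more positive for 3 (7.14% against 8.13%). Without that replicate the number was 26, or 61.9% where 49.0% of all genes were called, 16 more negative (38.1% against 26.4%) and 10 more positive (23.8% against 22.7%). The 42 include members near 0 counts in 1 line, such as IRF7 and IFI44. Their difference could not be measured (SE 3782.94 and 53.69 with all libraries).

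OAS3 was among the 12. Its HEK-293T libraries stood at 11.98, 12.2 and 11.7 CPM with siNegative and at 6.03, 12 and 12.7 CPM with siHNRNPH1, so replicates 2 and 3 lay at the control level and replicate 1 below it. The HT-1080 effect minus the HEK-293T effect was -2.43 (SE 0.28; interaction edgeR BH-adjusted p = 2.36e-04), and -2.66 (SE 0.11) without replicate 1. IFIH1 had 1.40, 1.77 and 1.57 CPM against 1.25, 1.70 and 1.68 CPM in HEK-293T, with a difference of -1.74 (SE 0.19; interaction edgeR BH-adjusted p = 1.21e-04; -1.82, SE 0.16, without replicate 1). IRF1 had 5.42, 5.63 and 5.68 CPM against 5.29, 5.37 and 5.00 CPM, with a difference of -1.34 (SE 0.13; interaction edgeR BH-adjusted p = 5.46e-05; -1.27, SE 0.08, without replicate 1). The falls of these 3 genes in HT-1080 thus had no counterpart of that size in HEK-293T.

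IRF9 gave a positive difference. It stood at 12.01, 11.9 and 11.2 CPM with siNegative and at 8.56, 10.8 and 10.6 CPM with siHNRNPH1 in HEK-293T, and the difference was 0.98 (SE 0.12; interaction edgeR BH-adjusted p = 2.24e-04; 0.93, SE 0.07, without replicate 1). ISG20 differed by -1.78 (SE 0.25; interaction edgeR BH-adjusted p = 6.84e-04; -1.62, SE 0.18, without replicate 1), where its rise in HEK-293T stood against 5.82, 6.77 and 7.37 CPM and 8.67, 7.35 and 8.36 CPM in HT-1080. TAP1 differed by -0.81 (SE 0.17; interaction edgeR BH-adjusted p = 0.00622; -0.65, SE 0.07, without replicate 1). DDX60 fell in both lines, and its difference of 0.70 (SE 0.36) was not called (interaction edgeR BH-adjusted p = 0.206), nor that of 0.40 (SE 0.17) without replicate 1 (interaction edgeR BH-adjusted p = 0.0601).

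Members under the filter on low counts are given by their counts, replicates 1 to 3. In HEK-293T, 8 were not tested. OASL, an OAS-like protein without synthetase activity, had 4, 1 and 8 with siNegative and 36, 16 and 9 with siHNRNPH1, groups that did not overlap and in which replicate 1 was highest. The other 7 had at most 6 counts in a library: IFI44 went from 3, 0 and 6 to 0, 0 and 3, OAS1 from 1, 2 and 1 to 3, 1 and 3, OAS2 from 0 in each to 1, 0 and 1, PARP14 from 0, 0 and 2 to 0 in each, RSAD2 from 3, 0 and 5 to 0, 4 and 2, CXCL10 from 0, 2 and 0 to 3, 0 and 0, and XAF1 from 1, 0 and 0 to 0 in each. Nothing can be read from changes of that size.

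In HT-1080, 6 members were not tested. RSAD2, the antiviral enzyme viperin, had 2, 8 and 5 counts with siNegative and 0, 1 and 0 with siHNRNPH1. XAF1, an apoptosis factor, had 3, 3 and 6 against 1, 0 and 0. CXCL10, a chemokine that attracts T cells, had 1, 3 and 1 against 0 in each library, where 3 counts is the limit that a total of 0 allows. For these 3, every depleted library had fewer counts than any control library. The share of all genes, or of genes this low, with groups that do not overlap was not computed, so no result is drawn from that. IFI27 had 9, 16 and 3 against 5, 14 and 9, with the same total of 28. IFI44L had 0, 1 and 1 against 0, and IRF7 had 0 in every library.

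How each gene's counts divide among its transcripts was compared because HNRNPH1 is a splicing factor. In HT-1080, 2 of 31 members tested were called (limma diffSplice BH-adjusted p under 0.05), or 6.45% where 21.2% of all genes were called. IRF9 transcript ENST00000561415.2 held 17.9%, 15.2% and 17.8% with siNegative and 10.1%, 12.5% and 10.6% with siHNRNPH1 (gene-level limma diffSplice BH-adjusted p = 0.0308). IFI35, named for its interferon induction, had ENST00000415816.7 at 47.8%, 30.9% and 45.8% against 31.1%, 19.1% and 23.4%, shares that overlapped by a narrow margin (gene-level limma diffSplice BH-adjusted p = 0.0267). Both calls depended on the libraries. Without siNegative replicate 3, siHNRNPH1 replicate 2 or siHNRNPH1 replicate 3 no member was called (13.8% to 15.9% of all genes). Without siNegative replicate 1 only 1 was (16.6% of all genes).

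In HEK-293T, 1 of 32 members was called, or 3.12% where 9.59% of all genes were called, and 6 of 34 (17.6%, where 41.6% of all genes were called) without replicate 1 of siHNRNPH1. IFITM3 transcript ENST00000526811.4 was at 0% in all 3 siNegative libraries and at 26.8%, 26.3% and 15.3% with siHNRNPH1 (gene-level limma diffSplice BH-adjusted p = 0.012; exact two-sided permutation p = 0.1, the smallest that 3 against 3 allows). The gene had only 159 to 307 counts per library there, and RefSeq places IFITM3-AS1 across it, so this share is uncertain. The call was lost without siNegative replicate 2 or 3. ADAR, whose isoforms include an interferon-induced one, was not called in either line with all libraries and was among the 6 called in HEK-293T without replicate 1. Its transcript ENST00000679375.1 held 4.88%, 6.04% and 7.31% in HEK-293T siNegative and 31.5%, 10.7% and 11.2% in siHNRNPH1 (gene-level limma diffSplice BH-adjusted p = 0.822 with all libraries).

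The IsoSeq pools list transcript models without read counts, 1 pool per group, and carry no test. At least 1 model was found at 21 of the 45 members in HEK-293T siNegative, 17 in HEK-293T siHNRNPH1, 35 in HT-1080 siNegative and 31 in HT-1080 siHNRNPH1. HT-1080 pools thus held models for more members, and the pools contained 64705, 94847, 72186 and 68078 models in all. PARP14 had 5 and 2 models in the HT-1080 pools and 0 in both HEK-293T pools, and HERC5 had 6 and 13 in HEK-293T and 0 in both HT-1080 pools. The short reads were likewise near 0 for PARP14 in HEK-293T and under 1 CPM for HERC5 in HT-1080. IFIH1 had 4 and 1 models in HT-1080, and ADAR 40 and 56 in HEK-293T and 16 and 15 in HT-1080. Other members lower in the HT-1080 short reads had more models with siHNRNPH1. DTX3L had 4 and 8, DDX60 0 and 1, and IFIT2 and IFIT3 1 and 2 each.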

How the data were processed

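Short-read RNA-seq of 12 libraries (3 per group) and 4 IsoSeq pools were used, as deposited. The values are expected counts per transcript that the authors estimated with RSEM against GRCh38.p13, per the submitters' processing notes; the version of RSEM, the annotation and the strandedness are not given in the sources used here. For the IsoSeq pools, the deposited files list transcript models without counts. Transcripts were summed per gene identifier and rounded. Each line was fitted on its own with edgeR 4.0.16 (quasi-likelihood test, TMM, filterByExpr; R 4.3.3), two-sided, with Benjamini-Hochberg (BH) adjustment over all genes tested and a threshold of 0.05; the baseline used the 6 siNegative libraries and the interaction all 12. SE is an approximation, the absolute log2 fold change divided by the square root of the F value of the quasi-likelihood test. Transcript usage used limma 3.58.1 diffSplice on voom weights, among transcripts that passed filterByExpr. CPM is the count per mega count of a library's total, without the TMM scaling that the log2 values carry. Intervals and limits cover counting error only.

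The members and lists were chosen with earlier results of these data known. Genes named are HNRNPH1, members called in both lines, per line and direction the 6 largest called changes, members called against the majority, the 6 largest baseline differences per direction, the 6 smallest interaction p, ADAR and the usage calls, and members under the filter; of each other list up to 3 genes per direction. ISG15, MX1, HERC6, the not-called members of named families and the members with uneven replicates were chosen after their values were seen. IsoSeq models were named by overlap with RefSeq gene spans (GRCh38.p14), for names only, on the gene's strand except for 6 members.

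Tested on simulated data with genes changed 3-fold, the gene test recovered 89.5% in HEK-293T (19659 genes), 100% in HT-1080 (15898 genes), 80.5% for the interaction (20441 genes) and 100% for the baseline (19239 genes). On simulated data with the transcripts of 200 genes swapped, the usage test recovered 65.5% in HEK-293T (12640 genes) and 91.0% in HT-1080 (10381 genes). Alternatives were RLE size factors, library size alone, 2 other filters, DESeq2 1.42.0, a replicate block, all 12 libraries in 1 fit, leaving out each library, diffSpliceDGE and a 5% minimum share. Comparison of levels between genes and protein identities within families were left out. The result for 1 gene is not reported here.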

Additional observations from a re-analysis of the deposited data

Results flagged for a closer look

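For 12 members the effect of siHNRNPH1 differed between the lines by the test of the difference itself (HT-1080 effect minus HEK-293T effect on the log2 scale, edgeR interaction, BH-adjusted p under 0.05). The smallest p belonged to IRF1 at -1.34 (5.46e-05), IFIH1 at -1.74 (1.21e-04), IRF9 at 0.98 (2.24e-04), OAS3 at -2.43 (2.36e-04) and ISG20 at -1.78 (6.84e-04), each followed by its edgeR BH-adjusted p. TAP1 at -0.81 (0.00622) and IFIT3 at -1.15 (0.00833) followed. These 7 were called in every alternative run for them. HERC6 at 0.63 (0.0164) lost its call in 2 alternatives, OASL at -2.77 (0.0305) in 8, BST2 at 1.53 (0.029) in 9, TRIM21 at -0.95 (0.0296) in 10 and UBE2L6 at -0.90 (0.0442) in 11. Without HEK-293T siHNRNPH1 replicate 1 all 12 were called, with differences of -1.27 for IRF1, -1.82 for IFIH1, 0.93 for IRF9, -2.66 for OAS3, -1.62 for ISG20, -0.65 for TAP1, -0.91 for IFIT3, 0.63 for HERC6, -1.96 for OASL, 1.77 for BST2, -0.64 for TRIM21 and -0.58 for UBE2L6. For HERC6 and BST2 the effects had opposite signs, with log2 fold changes in HEK-293T of -0.47 and -1.35 and in HT-1080 of 0.23 and 0.26, none of them called with all libraries. Without HEK-293T siHNRNPH1 replicate 1 the HEK-293T values were -0.45 and -1.57, both called. OASL rests on 13 counts over the HEK-293T siNegative libraries. In UBE2L6, which charges ISG15 for transfer, the HEK-293T siHNRNPH1 libraries stood at 3.40, 2.10 and 2.19 CPM, so replicate 1 was highest.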

How the results depend on the processing

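In HT-1080 the count of changed members was 26, where 65.3% of all genes were called. Over all settings it stayed within 18 (29.3% of all genes) to 30 (65.2%). When 1 library was left out it was 25 to 29 (57.7% to 70.2% of all genes). The baseline count of 41 (86.6% of all genes) stayed within 39 (88.6%) to 45 (59.0%). All 12 libraries in 1 fit gave the lowest HT-1080 count, 18, with 2 higher and 16 lower. In HEK-293T the count of 3 (10.0% of all genes called) became 7 with DESeq2 (19.9%), 9 with all 12 libraries in 1 fit (21.4%), 0 with the replicate block (0.0%; 7 members at an unadjusted p under 0.05 in edgeR) and 0 to 21 when 1 library was left out: 21 without siHNRNPH1 replicate 1 (61.6%), 1 without replicate 2 (1.20%) or 3 (3.11%), and 0 without any of the siNegative libraries (at most 0.0974%; 6 members at an unadjusted p under 0.05 each). Alternatives without siHNRNPH1 replicate 1 were added after seeing the data. They gave 18 with the replicate block (58.2% of all genes), 19 with RLE size factors (61.5%), 19 with library size alone (61.6%) and 16 with DESeq2 (55.6%). The interaction count of 12 (19.0% of all genes) became 7 with the replicate block (11.9%) and 7 to 26 when 1 library was left out. It was 26 without HEK-293T siHNRNPH1 replicate 1 (49.0% of all genes) and 7 without HT-1080 siHNRNPH1 replicate 2 (12.1%). Without that HEK-293T replicate it was 26 with the block (47.0%), 26 with RLE (49.0%), 28 with library size alone (49.3%) and 27 with DESeq2 (49.3%). Changed usage in HEK-293T (1, with 9.59% of all genes called) was 3 with diffSpliceDGE (5.44%). It was 0 to 6 when 1 library was left out (2.69% to 41.6% of all genes). In HT-1080 (2, with 21.2% of all genes called) it was 6 with transcripts of at least 5% of their gene (24.0%) and 5 with the replicate block (22.5%). It was 0 with diffSpliceDGE (5.37% of all genes, with 5 members at an unadjusted p under 0.05). When 1 library was left out it was 0 to 3 (13.8% to 20.1% of all genes). Of the HEK-293T values followed over every setting, 2 that were not called turned sign: DTX3L (0.10) became -0.04 and -0.03 without siHNRNPH1 replicates 2 and 3 and 0.32 without replicate 1, and LGALS3BP (0.04), 0.23 without siHNRNPH1 replicate 2, became -0.07 with the replicate block, -0.02 without siNegative replicate 3, and -0.46 without siHNRNPH1 replicate 1, or -0.43, -0.45, -0.40 and -0.45 with the block, RLE, library size alone and DESeq2 in that fit. Over the 37 members tested, 11 had different signs with and without siHNRNPH1 replicate 1, among them EIF2AK2 (-0.16 and 0.11), PARP9 (-0.04 and 0.15) and TAP1 (0.01 and -0.12), called without it only. Deviations of same-numbered libraries correlated at 0.0172 to 0.0528 in HEK-293T, where those of differently numbered libraries correlated at -0.042 to 0.0127. In HT-1080 the ranges were -0.0607 to 0.0281 and -0.0627 to 0.0402. Values this small cannot decide whether replicate numbers pair the libraries, so the block results are not read as weaker effects. The causes were not tested. The filter on low counts left out 8 members in HEK-293T and 6 in HT-1080, whose counts are given without a test.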
